A study of Mus musculus with 4 samples.

Results

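The CCN genes and the thrombospondins encode matricellular proteins, secreted modular proteins that sit in the matrix around cells and signal through surface receptors. The members were the 8 genes Cyr61, Ctgf, Nov, Wisp1, Wisp2, Thbs1, Thbs2 and Thbs3, chosen by gene name from the probe names of the arrays, with the newer CCN names Ccn1 to Ccn5 counted too. They were carried by 10 of the 41174 probes, 3 of them for Thbs1, and are 8 of the 28307 gene names on the array. Of these 10 probes, 9 passed the filters, so 7 members were among the 12367 genes tested, and Ctgf is described without a test. Primary smooth muscle cells from the aorta of Atg7F/F SM22α-Cre+ mice, whose Atg7 gene is floxed on both alleles, were compared with those of Atg7+/+ SM22α-Cre+ mice. Both genotypes carried Cre recombinase driven by the smooth muscle promoter SM22α, so the controls carried it as well, and the labels give the strain of both as C57LB/6. The labels give no age of the animals, do not say whether animals were pooled and do not say which part of Atg7, the E1-like enzyme of autophagosome formation, was floxed. Cells of passages 4 to 10 were grown with 10% serum, and each genotype had 2 biological replicates. Each Atg7F/F extract was hybridised with the Atg7+/+ extract of the same number on 2 arrays with exchanged dyes, which gave 4 arrays.

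Cyr61 (CCN1) and Ctgf (CCN2) are classical targets of the YAP/TAZ coactivators and their TEAD partners, are induced by serum and TGF-beta, and bind integrins and heparan sulfate proteoglycans. Most CCN proteins share an IGF-binding-protein-like module, a von Willebrand factor C module, a thrombospondin type 1 repeat and a cystine knot, of which Wisp2 (CCN5) lacks the last. Thrombospondins 1 and 2 form trimers, carry type 1 repeats, bind CD36 and CD47 and inhibit angiogenesis, and thrombospondin 1 also activates latent TGF-beta. Thrombospondin 3 belongs with thrombospondin 4 and COMP to the pentameric group, which lacks type 1 repeats.

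Thbs1 was the member with more than 1 probe, and its probes did not give ratios of the same size, so the sequences behind its values are shown, with that of Thbs2. In the mm9 build of the files the Thbs1 probes lie on chromosome 2, plus strand, with probe 1 at 117946712 to 117946892, probe 2 at 117948330 to 117948389 and probe 3 at 117951775 to 117951834. Probe 1 spans 181 genomic bases with 60 bases of sequence. The Thbs2 probe lies on chromosome 17, minus strand, at 14804526 to 14805789, and spans 1264 genomic bases. Exons and untranslated regions are not stated, as no mm9 annotation was at hand. Of Thbs1 probe 3, the brightest and the last of the 3 along the strand, the first 30 bases are given. The longest run of bases that any member's probe shared with a probe of another member was 8.
Thbs1 probe 1: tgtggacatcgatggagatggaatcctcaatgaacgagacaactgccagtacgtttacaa
Thbs1 probe 2: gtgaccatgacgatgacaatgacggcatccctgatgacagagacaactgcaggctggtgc
Thbs1 probe 3, first bases: atatatttattttgttcccctattctggag
Thbs2 probe: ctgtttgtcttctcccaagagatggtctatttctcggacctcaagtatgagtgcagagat

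Log2 ratios below are Atg7F/F over Atg7+/+, after background correction and loess normalization within each array. Each replicate is the mean of its dye-swapped arrays, and means of both replicates are given ± SD with n = 2. Log2 levels are the mean of both dyes in an extract after scaling between arrays, and depend on the probe, so they are compared across extracts and not across probes. Between 43.3% and 45.5% of spots in a channel were well above background and 0 probes were saturated. Atg7 itself was lower in Atg7F/F cells on all 4 arrays, with a mean ratio of -1.22 ± 0.07, a limma adjusted p of 0.938 and, unadjusted, 6.07e-04. The smooth muscle markers actin Acta2, transgelin Tagln and myosin Myh11 were measured well above background, and myocardin, Myocd, was not. Of the 7 smooth muscle markers tested, 0 were higher and 2, Acta2 and Tagln, were lower on all 4 arrays. The shares of all genes were 10.6% and 9.95%. The median ratio of the 7 was -0.16 in replicate 1 and -0.18 in replicate 2. Limma p-values weigh the mean of 2 replicates against a spread that is in part shared across all genes. Of the 3.18 degrees of freedom, 2.18 came from that shared part. The labels call the replicates biological, and whether they were separate cultures or separate animals is not given.

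None of the 7 members tested passed the adjusted test. Limma called 0.0% of the 12367 genes at an adjusted p below 0.05, and 369 genes had an unadjusted p below 0.05, of which 0 were members. With loess normalization, though not with median centring, Cyr61 was lower in Atg7F/F cells on every array, and Wisp1 and Thbs2 were higher on every array. The counts were thus 2 of 7 members higher on all 4 arrays, where 10.6% of all genes were, and 1 of 7 lower on all 4, where 9.95% of all genes were. Median centring leaves dye trends with brightness in place, and with it 0 members kept one sign on all 4 arrays. Nov, Wisp2 and Thbs3 were lower in Atg7F/F on both arrays of replicate 1 and higher on both of replicate 2, a pattern that 13.9% of all genes showed. On both arrays of replicate 1, 2 members were higher and 4 lower, where 29.3% and 29.9% of all genes were. On both arrays of replicate 2, 6 members were higher and 1 was lower, where 38.1% and 35.0% of all genes were. Nov, included in these counts, passed the filter through Atg7F/F alone, as its Atg7+/+ Cy5 signal in replicate 2 was not well above background. Over the 7 members the median ratio was 0.23 (-0.18 in replicate 1 and 0.42 in replicate 2), against 0.0034 for all genes tested, whose medians were 0.000157 in replicate 1 and 0.00533 in replicate 2.

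**Figure D1:**
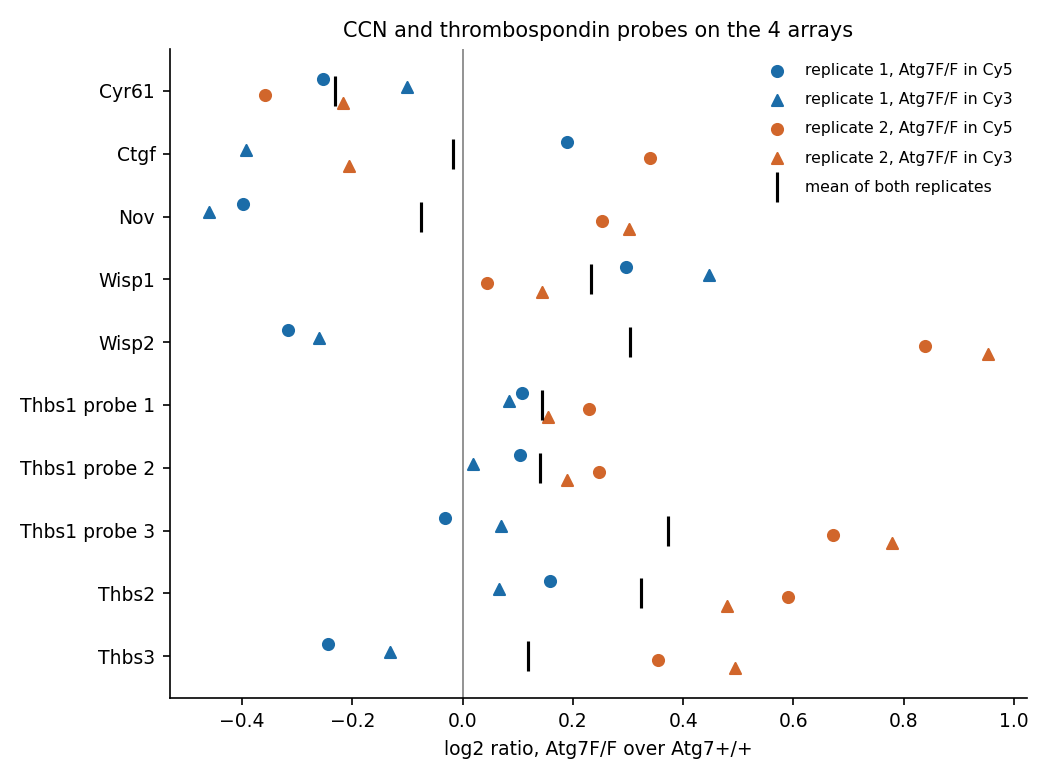
Log2 ratio (Atg7F/F over Atg7+/+) of each member probe on each of the 4 arrays, with replicate 1 in blue, replicate 2 in orange, circles for arrays with Atg7F/F in Cy5, triangles for arrays with Atg7F/F in Cy3 and black bars for the mean. After loess, though not after median centring, the points of Cyr61 lie left of 0 and those of Wisp1 and Thbs2 right of 0, while the points of Wisp2 run from -0.32 to 0.95 by replicate and those of Ctgf change side with the dye.

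Cyr61, an integrin-binding CCN protein and immediate early gene of serum-stimulated cells, was lower in the Atg7F/F extract of both pairs. Its probe lies on chromosome 3, minus strand, at 145310187 to 145310246 (mm9). The raw mean signals of Atg7F/F were 31742.4 (Cy5) and 20758.7 (Cy3) in replicate 1 and 19938.5 (Cy5) and 14377.2 (Cy3) in replicate 2. Those of Atg7+/+ were 34887.7 (Cy5) and 23551.5 (Cy3) in replicate 1 and 24570.4 (Cy5) and 18071.1 (Cy3) in replicate 2. In each dye, then, the Atg7F/F signal was below the Atg7+/+ signal of the same replicate. The log2 levels in replicates 1 and 2 were 14.61 and 14.10 for Atg7F/F, against 14.79 and 14.39 for Atg7+/+. The groups overlapped, since both extracts of replicate 1 were above both of replicate 2. The gap between the replicates was 0.51 in Atg7F/F and 0.40 in Atg7+/+, and both were larger than the difference between the genotypes. The ratios were -0.25 and -0.10 on the arrays of replicate 1 and -0.36 and -0.22 on those of replicate 2. Their mean of -0.23 ± 0.08 stands for a 1.18-fold lower signal (limma unadjusted p 0.077, adjusted p 1.00). With median centring the mean was -0.10 and the arrays with Atg7F/F in Cy5 turned positive, at 0.21 and 0.51.

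Endothelial markers were lower in the same Atg7F/F extracts, 10 of 12 on all 4 arrays, where 9.95% of all genes were. Their median ratio was -0.17 in replicate 1 and -0.51 in replicate 2. Their summed linear level was 11029 and 12711 in the Atg7F/F extracts and 12398 and 24410 in the Atg7+/+ extracts. All 12 markers passed the filter, which asks for signal well above background on all 4 arrays in at least 1 genotype. It does not require this in Atg7F/F. Some markers were dim, such as Kdr, with levels of 6.59 and 6.45 in Atg7F/F and 6.66 and 6.56 in Atg7+/+. The Mmrn2 probe made up 41.0% to 50.8% of each sum. Without it the other 11 summed to 6503.3 and 6247.9 in Atg7F/F and 6589.5 and 12647.0 in Atg7+/+, nearly equal in replicate 1. The brightest of these 11 was Emcn, with levels of 11.75 and 11.46 in Atg7F/F and 11.59 and 12.80 in Atg7+/+. Its ratio was 0.17 in replicate 1 and -1.34 in replicate 2, and every other marker had a negative ratio in replicate 1. The near-equal sums thus do not describe the markers one by one. The part of these markers in the ratios of Cyr61 and the other members was not tested. In extracts of whole cultures, fewer cells of a type and less RNA per cell cannot be told apart.

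Among the genes tested, the 3 whose centred levels over the 4 extracts lay nearest to those of Cyr61 were Enc1, an actin-associated kelch protein, Thbd, the thrombin receptor thrombomodulin, and Ccnd3, a D-type cyclin. Their Euclidean distances were 0.029, 0.032 and 0.032 log2 units, and their mean ratios -0.21, -0.22 and -0.22. Each had its highest level in the Atg7+/+ extract of replicate 1 and its lowest in the Atg7F/F extract of replicate 2, as Cyr61 had. This order and the near-equal ratios follow from choosing the genes on these same levels. A dimmer probe of Enc1 gave ratios of -0.14 and -0.585 in the replicates, so the small distance of Enc1 holds for its brightest probe.

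The promoter of Cyr61 is shown because TEAD factors are its textbook regulators. It is given as the 250 bases before the start of transcription in RefSeq, on GRCm38.p6, chr3:145649986-145650235, minus strand, read 5′ to 3′, with matches to CATTCC (the TEAD motif) and TATAAA (the TATA box) in capitals. Promoters were matched for 3 of the 8 members, Cyr61, Thbs2 and Thbs3.
Cyr61 promoter: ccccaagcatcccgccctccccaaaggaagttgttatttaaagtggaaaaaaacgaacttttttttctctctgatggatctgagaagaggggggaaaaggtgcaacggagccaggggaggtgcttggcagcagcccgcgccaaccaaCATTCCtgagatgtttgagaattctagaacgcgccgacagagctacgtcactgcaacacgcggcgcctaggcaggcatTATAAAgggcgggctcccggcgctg

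The CATTCC match ran from 103 to 98 bases before the start and the TATAAA match from 25 to 20 bases before it. CATTCC, searched on both strands, was present in 12.6% of the 32851 promoters of the same length, and TATAAA, searched on the transcribed orientation alone, in 7.59%. The AP-1 motif TGANTCA (both strands, in 6.75% of promoters), the SMAD motif CAGAC (both strands, in 42.2%) and the CArG box of SRF (in 1.47%) had no match in these letters of the Cyr61 window. The motifs do not overlap each other there, and a match is a description of letters, not of a bound site.

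Ctgf, the connective tissue growth factor CCN2, did not differ between the genotypes with one sign across the dyes. Its probe, on chromosome 10, plus strand, at 24318281 to 24318340 (mm9), was marked as a non-uniformity outlier in both channels on 3 of the 4 arrays, and so was left out of the test. The standard deviation over the pixels of its spot was 48.8% to 66.6% of the mean on those arrays, against 13.0% (Atg7F/F) and 8.89% (Atg7+/+) on the array without the mark. The raw mean signals of Atg7F/F were 80143.8 (Cy5) and 42065.3 (Cy3) in replicate 1 and 83736.2 (Cy5) and 55383.9 (Cy3) in replicate 2. Those of Atg7+/+ were 89828.4 (Cy5) and 42161.2 (Cy3) in replicate 1 and 98405.1 (Cy5) and 42338.6 (Cy3) in replicate 2. The sign of the ratio followed the dye and not the genotype, with 0.19 and 0.34 where Atg7F/F was in Cy5 and -0.39 and -0.21 where it was in Cy3. Averaged over the dyes, the ratios were -0.10 in replicate 1 and 0.07 in replicate 2, with a mean of -0.02 ± 0.12. The log2 levels were 15.82 and 16.02 in Atg7F/F and 15.92 and 15.95 in Atg7+/+, so both Atg7+/+ levels lay between those of Atg7F/F. Median pixel signals, which uneven spots move less, gave -0.09 and 0.02 in the replicates. If the probe was kept, a choice made after seeing the data, the limma p was 0.871 unadjusted and 1.00 adjusted.

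The other CCN members were Nov (CCN3), a CCN protein associated with growth restraint in smooth muscle, Wisp1 (CCN4), a WNT1-inducible CCN protein, and Wisp2 (CCN5), which restrains smooth muscle proliferation. Wisp1 was higher in Atg7F/F, mostly in replicate 1, whereas Nov and Wisp2 had opposite signs in the replicates.

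For Wisp1, measured on chromosome 15, plus strand, at 66754637 to 66754696 (mm9), the raw signals of Atg7F/F were 11271.6 (Cy5) and 7116.3 (Cy3) in replicate 1 and 7110.0 (Cy5) and 5372.2 (Cy3) in replicate 2. In Atg7+/+ they were 7737.5 (Cy5) and 6038.4 (Cy3) in replicate 1 and 6904.7 (Cy5) and 5325.7 (Cy3) in replicate 2. The Atg7F/F signal was the higher one in each dye and replicate, by little in replicate 2. The levels were 13.09 and 12.68 in Atg7F/F and 12.72 and 12.58 in Atg7+/+, and the groups overlapped because the Atg7F/F extract of replicate 2 lay below the Atg7+/+ extract of replicate 1. The arrays of replicate 1 gave ratios of 0.30 and 0.45 and those of replicate 2 gave 0.05 and 0.14, a mean of 0.23 ± 0.20 or 1.18-fold (limma unadjusted p 0.13, adjusted p 1.00). With median centring, 1 of the 4 arrays turned negative, at -0.18.

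Wisp2, on chromosome 2, plus strand, at 163658717 to 163658776 (mm9), had the widest gap between replicates among the members. Its raw signals in Atg7F/F were 6353.5 (Cy5) and 4317.5 (Cy3) in replicate 1 and 7772.8 (Cy5) and 5766.4 (Cy3) in replicate 2. In Atg7+/+ they were 7564.1 (Cy5) and 5285.7 (Cy3) in replicate 1 and 4208.3 (Cy5) and 3359.7 (Cy3) in replicate 2. The Atg7F/F signal was thus the lower one in replicate 1 and the higher one in replicate 2, in both dyes. The levels were 12.30 and 12.81 in Atg7F/F and 12.59 and 11.92 in Atg7+/+, so the groups overlapped. The ratio was -0.29 in replicate 1 and 0.90 in replicate 2, a 1.86-fold higher value in the second pair, and the dye-swapped arrays of a pair differed by little, with -0.32 and -0.26 in the first and 0.84 and 0.95 in the second. The mean was 0.30 ± 0.84 (limma unadjusted p 0.437, adjusted p 1.00). A smaller gap between the replicates was found for 98.0% of all genes tested.

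Nov was dim, on chromosome 15, plus strand, at 54584204 to 54584263 (mm9). Its raw signals were 127.4 (Cy5) and 79.6 (Cy3) in the Atg7F/F extract of replicate 1 and 142.6 (Cy5) and 68.7 (Cy3) in that of replicate 2. In Atg7+/+ they were 155.2 (Cy5) and 111.7 (Cy3) in replicate 1 and 85.0 (Cy5) and 65.8 (Cy3) in replicate 2, and the 85.0, over a local background of 79.0, was not well above background. The ratio was -0.43 in replicate 1 and 0.28 in replicate 2, with a mean of -0.08 ± 0.50 (limma unadjusted p 0.745, adjusted p 1.00). Its levels were 6.76 and 6.83 in Atg7F/F and 7.18 and 6.55 in Atg7+/+, with both Atg7F/F levels between those of Atg7+/+. The sign of the mean turned in other processings: it was 0.02 without background subtraction and 0.78 with the scanner software's processed signals, which differ in both the background and the dye step and gave replicate ratios of -1.07 and 2.62.

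**Figure D2:**
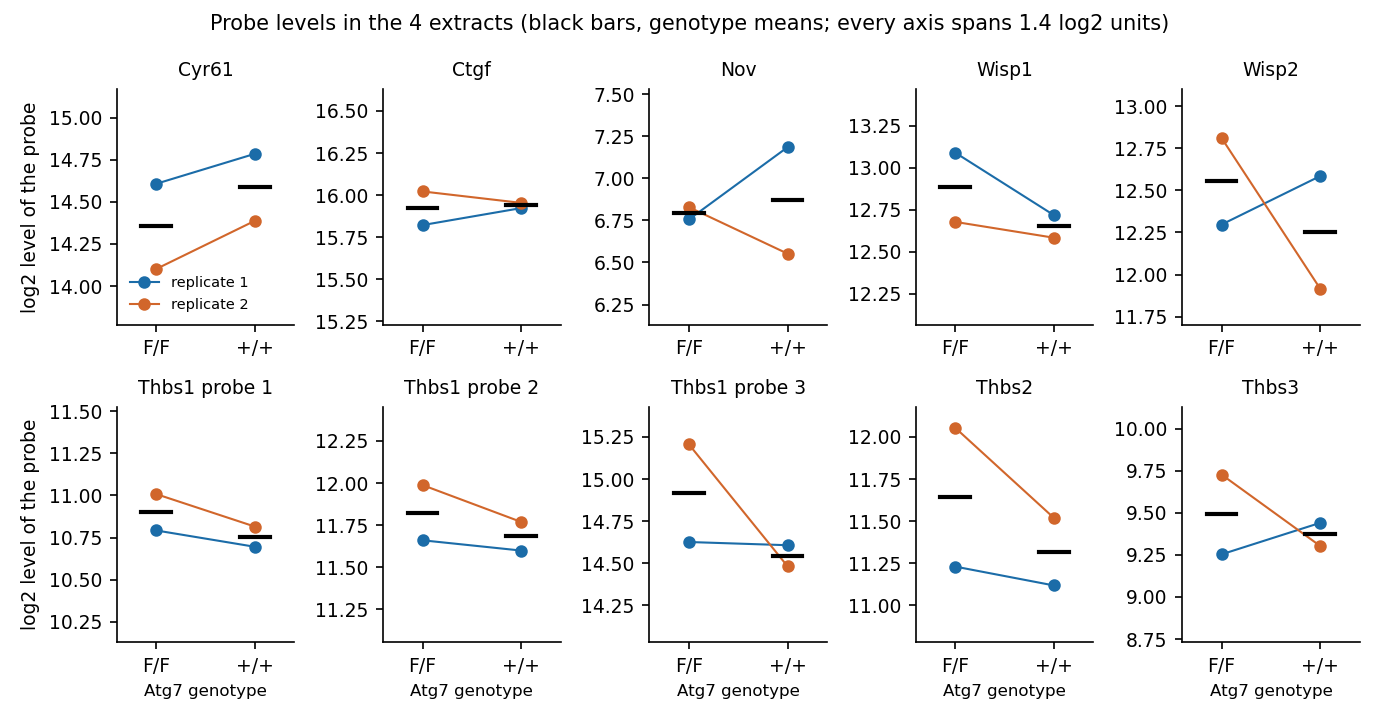
Log2 level of each member probe in the Atg7F/F (left) and Atg7+/+ (right) extracts, with replicate 1 in blue, replicate 2 in orange, lines joining the extracts hybridised together and black bars for genotype means. The lines of Cyr61 run upwards to Atg7+/+ and those of Wisp1 and Thbs2 downwards, while those of Wisp2, Nov, Thbs3 and Ctgf run in opposite directions.

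The thrombospondins were higher in the Atg7F/F extract of replicate 2, and in replicate 1 their ratios were close to 0 or, for Thbs3, negative. Thbs1, the trimeric activator of latent TGF-beta, had raw signals on its brightest probe (probe 3) of 33293.8 (Cy5) and 20759.5 (Cy3) in the Atg7F/F extract of replicate 1 and 42354.1 (Cy5) and 31415.3 (Cy3) in that of replicate 2. In Atg7+/+ they were 30909.3 (Cy5) and 21205.5 (Cy3) in replicate 1 and 27364.5 (Cy5) and 18155.5 (Cy3) in replicate 2. The levels were 14.63 and 15.21 in Atg7F/F and 14.61 and 14.48 in Atg7+/+. The groups did not overlap, but the lower Atg7F/F level was 0.02 above the Atg7+/+ level of its own pair. By their brightest probes, Thbs1 alone of the 7 members had both Atg7F/F levels above both Atg7+/+ levels, where 11.4% of all genes did, and 0 had both below, where 10.1% of all genes did. The ratio was 0.02 in replicate 1 and 0.72 in replicate 2 (a 1.65-fold higher signal in that pair), with a mean of 0.37 ± 0.50 (limma unadjusted p 0.177, adjusted p 1.00).

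The other Thbs1 probes gave smaller mean ratios, with one sign on all 4 arrays, and on both of them the genotypes overlapped. Probe 1 had ratios of 0.10 in replicate 1 and 0.19 in replicate 2, with a mean of 0.15 ± 0.07, and levels of 10.79 and 11.01 in Atg7F/F and 10.70 and 10.82 in Atg7+/+. Probe 2 had ratios of 0.06 and 0.22, with a mean of 0.14 ± 0.11, and levels of 11.66 and 11.99 in Atg7F/F and 11.60 and 11.77 in Atg7+/+. All 3 probes were thus higher in Atg7F/F on average. In replicate 1 probes 1 and 2 had the larger ratios, and in replicate 2 probe 3 had the largest. The mean over the 3 probes was 0.22 in place of 0.37. Whether the probes read the same transcripts was not tested.

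The tested genes nearest to Thbs1 in their centred levels over the 4 extracts were Bmi1, a polycomb protein, Tmem205 and 2900097C17Rik, at Euclidean distances of 0.043, 0.044 and 0.064. All 3 had the highest of the 4 levels in the Atg7F/F extract of replicate 2, and their mean ratios were 0.38, 0.33 and 0.31, which follows from choosing them on these levels. A dimmer probe of Bmi1 gave ratios of -0.04 and 0.02 in the replicates, so this likeness holds for its brightest probe.

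Thbs2, the trimeric thrombospondin that inhibits angiogenesis and shapes collagen fibrils, was higher in Atg7F/F in both pairs. Its raw signals in Atg7F/F were 3210.5 (Cy5) and 1943.7 (Cy3) in replicate 1 and 4508.4 (Cy5) and 3466.7 (Cy3) in replicate 2. In Atg7+/+ they were 2632.1 (Cy5) and 1983.2 (Cy3) in replicate 1 and 3473.9 (Cy5) and 2381.0 (Cy3) in replicate 2. The raw Cy3 signals of replicate 1 were nearly equal, and the other 3 pairs were higher in Atg7F/F. The levels were 11.23 and 12.05 in Atg7F/F and 11.12 and 11.52 in Atg7+/+. Both genotypes were higher in replicate 2, by 0.82 in Atg7F/F and 0.40 in Atg7+/+, so the groups overlapped. The ratios were 0.16 and 0.07 on the arrays of replicate 1 and 0.59 and 0.48 on those of replicate 2, a mean of 0.32 ± 0.30 or 1.25-fold (limma unadjusted p 0.108, adjusted p 1.00). With median centring, 1 of the 4 arrays turned negative, the one of replicate 1 with Atg7F/F in Cy3.

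The promoter of Thbs2 is shown as that of the thrombospondin counted as higher on all 4 arrays after loess, though not after median centring, since thrombospondins respond to TGF-beta in many cells and CAGAC is the SMAD motif. It is given as the 250 bases before the RefSeq start on GRCm38.p6, chr17:14694263-14694512, minus strand, read 5′ to 3′. The capitals mark GTCTG, which is CAGAC on the other strand.
Thbs2 promoter: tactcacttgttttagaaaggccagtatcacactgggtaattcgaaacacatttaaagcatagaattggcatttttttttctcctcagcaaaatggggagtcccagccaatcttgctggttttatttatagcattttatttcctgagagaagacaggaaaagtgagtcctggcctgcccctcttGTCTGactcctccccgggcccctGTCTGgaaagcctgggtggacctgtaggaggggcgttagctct

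The matches ran from 66 to 62 and from 43 to 39 bases before the start. With CAGAC in 42.2% of all promoters of this length, its presence is common. The other motifs had no match in the Thbs2 window, and the Thbs3 window had no match to any of the 5 motifs searched.

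Thbs3, a pentameric thrombospondin, had opposite signs in the replicates. Its probe lies on chromosome 3, plus strand, at 89030522 to 89030581 (mm9). The raw signals in Atg7F/F were 728.7 (Cy5) and 538.2 (Cy3) in replicate 1 and 831.5 (Cy5) and 686.9 (Cy3) in replicate 2. In Atg7+/+ they were 812.9 (Cy5) and 610.4 (Cy3) in replicate 1 and 666.3 (Cy5) and 535.2 (Cy3) in replicate 2. In both dyes the Atg7F/F signal was the lower one in replicate 1 and the higher one in replicate 2. The levels were 9.25 and 9.73 in Atg7F/F and 9.44 and 9.30 in Atg7+/+, with both Atg7+/+ levels between those of Atg7F/F. The ratios were -0.19 and 0.42, with a mean of 0.12 ± 0.43 (limma unadjusted p 0.578, adjusted p 1.00).

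The remaining genes of these families were Wisp3, Thbs4 and Comp. Wisp3 and Thbs4 had 2 probes each, and none was well above background. Comp, the cartilage oligomeric matrix protein, also called thrombospondin 5, showed the replicate pattern of Thbs3 at a larger size. Its levels were 9.49 and 11.75 in Atg7F/F and 10.60 and 9.67 in Atg7+/+, so the highest and the lowest of the 4 levels were both in Atg7F/F. The ratio was -1.12 in replicate 1 and 2.08 in replicate 2, with a mean of 0.48 ± 2.26 (limma adjusted p 1.00), and 99.9% of genes tested had a smaller gap between the replicates.

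Some fibroblast markers were also lower in replicate 1 and higher in replicate 2, as Nov, Wisp2, Thbs3 and Comp were. This held on both arrays of each replicate for 4 of 8 markers, where 13.9% of all genes showed it. Another 2 of 8 were lower on all 4 arrays, where 9.95% of all genes were. The median ratio over the 8 markers was -0.35 in replicate 1 and 0.52 in replicate 2. Replicates 1 and 2 gave -0.33 and 0.55 for the proteoglycan Dcn and -0.17 and 0.49 for the proteoglycan Lum, while the receptor Pdgfra had 0.06 and 0.08, and Cd34 was lower in both, at -0.36 and -1.01. The summed linear level of the 8 markers, all of which passed the filter, was 50853 and 71442 in Atg7F/F and 52639 and 48054 in Atg7+/+. The Serpinf1 probe made up 81.4% to 91.5% of each sum, and without it the other 7 summed to 7675 and 6042 in Atg7F/F and 9790 and 5882 in Atg7+/+. The part of these markers in the ratios of the members was not tested. Platelets store thrombospondin 1, and of their markers Pf4, Ppbp and Itga2b were not well above background and 2 of 5 were tested, with a summed level of 458 and 640 in Atg7F/F and 481 and 518 in Atg7+/+, most of it from Gp1bb. Of the macrophage markers 3 of 8 were tested, and Ptprc, Adgre1, Itgam, Aif1 and C1qa were not well above background.

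**Figure D3:**
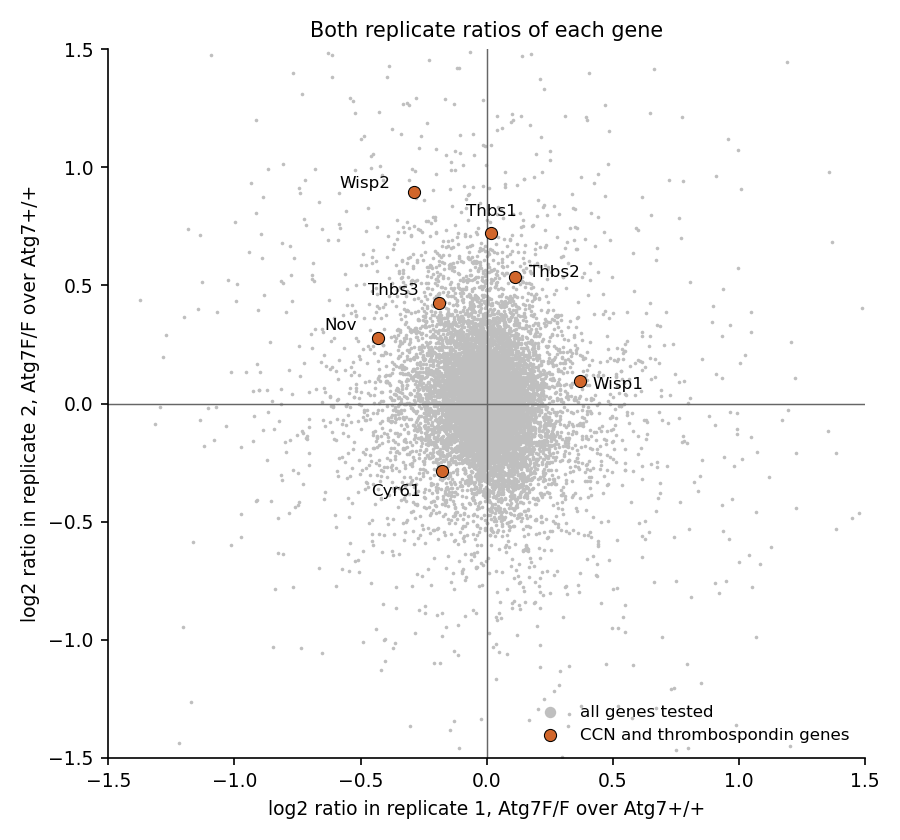
Log2 ratio (Atg7F/F over Atg7+/+) in replicate 1 (x axis) against replicate 2 (y axis) for the genes tested (grey) and the 7 members tested (orange); 85 genes lie outside the axes, which end at 1.5. Wisp2, Thbs3 and Nov lie in the upper left, Cyr61 in the lower left, Wisp1 and Thbs2 in the upper right, and Thbs1 at 0.02 and 0.72 next to the vertical line.

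Receptors and partners of these proteins were taken from a list of textbook partners. Of 20 genes, 14 were tested and 0 passed the adjusted test, with a median ratio of 0.01. On all 4 arrays 2 were higher and 2 lower, where 10.6% and 9.95% of all genes were. Cd47, the thrombospondin 1 receptor, had a mean of 0.08 ± 0.23. Its brightest probe had -0.08 in replicate 2, where 3 dimmer probes had 0.26 to 0.53. Lrp1 and Lrp6, receptors of the LDL receptor family, had -0.17 ± 0.09 and 0.04 ± 0.13, and the integrin subunit Itgav had 0.12 ± 0.01. Cd36, the receptor of type 1 repeats, was not well above background.

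Regulators and other targets of the YAP/TAZ route were examined beside Cyr61. Of 13 genes of YAP/TAZ, TEAD and SRF signalling, 11 were tested and 0 were called. On all 4 arrays 1 was higher and 2 were lower, where 10.6% and 9.95% of all genes were. The median of the 11 genes was -0.16, with 0.01 in replicate 1 and -0.22 in replicate 2. The coactivators Yap1 and Wwtr1 (TAZ) had -0.22 ± 0.33 and -0.16 ± 0.30, and the DNA-binding partners Tead2 and Tead3 had 0.04 ± 0.11 and -0.03 ± 0.14. The 2 genes lower on all 4 arrays were Tead4 and Rhoa, at -0.19 ± 0.05 and -0.23 ± 0.01. The 1 higher gene was Mkl1, at 0.18 ± 0.03. Of 21 other genes that respond to YAP/TAZ, 20 were tested and 0 were called. On all 4 arrays 0 were higher and 4 were lower, where 10.6% and 9.95% of all genes were. The 4 lower genes were Ptpn14, Crim1, F3 and Gadd45b, at -0.10, -0.43, -0.39 and -0.09. The median ratio of the 20 genes was -0.09, with -0.03 in replicate 1 and -0.13 in replicate 2. Ankrd1, a cardiac ankyrin repeat protein, had 0.33 in replicate 1 and -1.31 in replicate 2 (mean -0.49 ± 1.16), and Amotl2, Ajuba and Axl had 0.03 ± 0.02, -0.17 ± 0.10 and 0.01 ± 0.15. Mean ratios of this list ran from -0.49 for Ankrd1 to 0.15 for Arhgef17, and Cyr61, at -0.23, lay within that range. A link between these ratios and that of Cyr61 was not tested.

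The TGF-beta pathway, which thrombospondin 1 can activate and which induces Ctgf, had 14 of 16 genes tested, with a median of 0.05. On all 4 arrays 1 was higher and 1 lower, where 10.6% and 9.95% of all genes were. The ligands Tgfb1, Tgfb2 and Tgfb3 had -0.09 ± 0.27, 0.09 ± 0.21 and -0.40 ± 0.24, and the receptor Tgfbr1 had 0.17 ± 0.12. None was called. Tgfb3, at -0.57 and -0.23 in the replicates, was the gene that was lower on all 4 arrays.

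Other matricellular genes had 12 of 13 members tested and 0 called. On all 4 arrays 2 were higher and 1 lower, where 10.6% and 9.95% of all genes were. Another 5 were lower on both arrays of replicate 1 and higher on both of replicate 2, where 13.9% of all genes were. The gene lower on all 4 arrays was Fbln2, at -1.21 and -0.95 in the replicates, with a mean of -1.08 ± 0.18. Sparcl1 and the tenascins Tnc and Tnxb had 0.23 ± 0.05, -0.13 ± 0.18 and -0.04 ± 0.24. Sparc, the collagen-binding protein osteonectin, had 0.86 in replicate 1 and -3.93 in replicate 2 on the probe that was tested. Its brighter probe, left out as a non-uniformity outlier, gave -0.04 and -0.09 in the replicates, so the probes of Sparc disagreed. ADAMTS enzymes, proteases with thrombospondin type 1 repeats, had 8 of 9 members tested and 0 called. Their median was -0.01 in replicate 1 and 0.28 in replicate 2. On all 4 arrays 2 of these enzymes were higher and 0 lower, where 10.6% and 9.95% of all genes were. Adamts1, Adamts2, Adamts4 and Adamts5 had 0.07 ± 0.47, 0.94 ± 1.30, 0.12 ± 0.21 and -0.07 ± 1.06. In Adamts1, Adamts4 and Adamts5 the replicate ratio was negative in replicate 1, at only -0.03 for Adamts4, and positive in replicate 2. On both arrays of each replicate, this pattern held for 2 of the 8 enzymes tested, where 13.9% of all genes showed it.

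**Figure D4:**
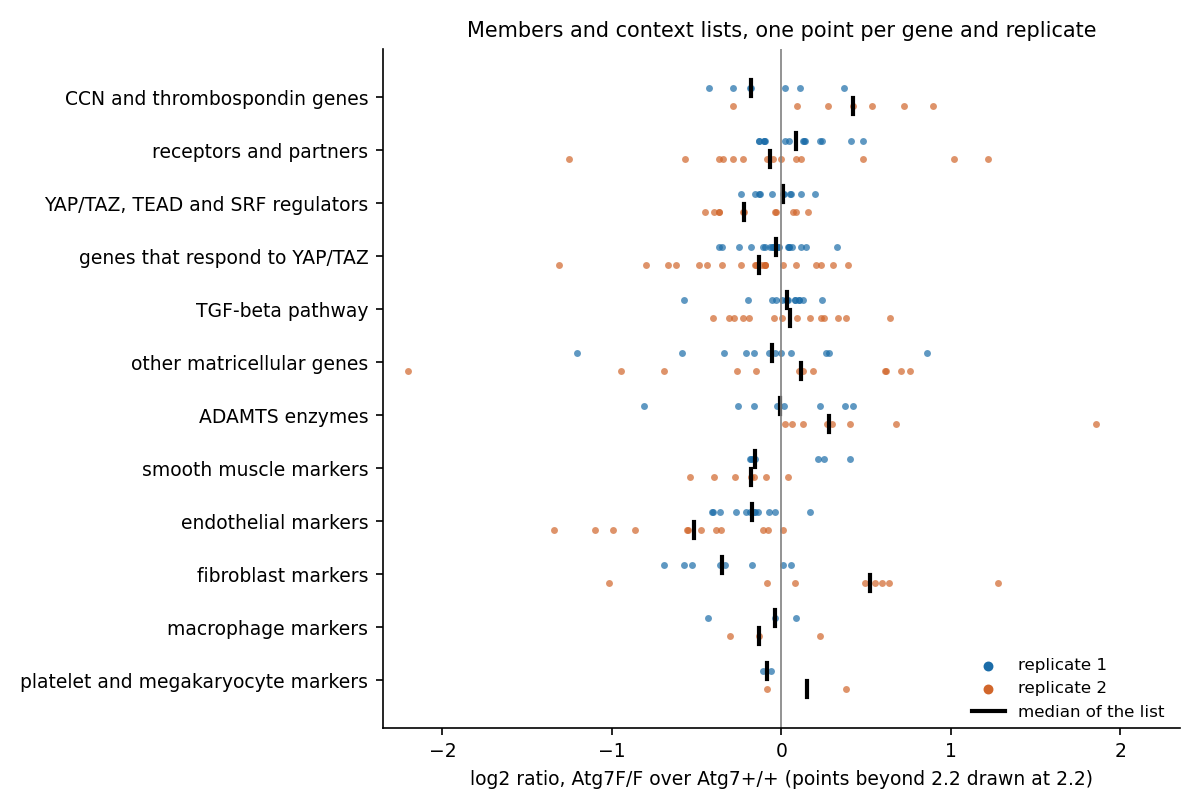
Log2 ratio (Atg7F/F over Atg7+/+) of each tested gene in replicate 1 (blue) and replicate 2 (orange), for the 7 members tested (top) and each list, with black bars for list medians; Sparc in replicate 2 lies beyond the axis and is drawn at its end. The members' medians, -0.18 and 0.42, and those of the fibroblast markers, -0.35 and 0.52, lie apart between the replicates, and those of the endothelial markers, -0.17 and -0.51, are both below 0.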

How the data were processed

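Per the file headers, the deposited scanner files give the mean, median and local background intensity of each spot in both channels, without normalization. The authors used Agilent Feature Extraction, version 10.1.1.1, per the submitters' processing notes. Per the file headers, these deposited files also give processed signals and their log10 ratio (red over green). The authors' deposited table of values holds log2 ratios of those processed signals, Atg7F/F over Atg7+/+, which equalled the ratio of processed signals within 0.001 for 100% of probes. The dye of each genotype came from the labels.

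Mean intensities were corrected with normexp in limma 3.58.1 (R 4.3.3) at offset 50, which shrinks the ratios of dim spots. Loess followed within each array, and dye-swapped arrays were averaged into 1 ratio per replicate. Levels came from loess and Aquantile. Of 41174 probes, 36 had a non-uniformity outlier and were left out, as were probes that in neither genotype were well above background on all 4 arrays. This left 17109. The brightest probe stood for each gene. Both ratios were tested against 0 with lmFit and eBayes, two-sided with 3.18 degrees of freedom, and adjusted by Benjamini-Hochberg over 12367 genes. The code was tested on simulated data.

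The replicate block is part of the test, since arrays pair the extracts of one number by hybridisation. Deviations of same-numbered extracts correlated at 0.18. The named genes were the members, Wisp3, Thbs4, Comp, Atg7, the first 4 measured genes of each list and the 3 genes nearest to Cyr61 and to Thbs1. Sparc's, Cd47's and Enc1's other probes, Serpinf1, Gp1bb, Mmrn2, Emcn, Kdr, Fbln2, Ptpn14, Crim1, F3, Gadd45b, Arhgef17, Tead4, Rhoa and Mkl1 were chosen after their values were seen. The members, lists and tests were chosen with earlier results of these data known. Alternatives covered the background step, processed signals, the deposited table, median centring, the filters, the probe rule, arrays as a random block, the replicate block and each replicate left out. Promoter sequences and updated names, for 25097 probes, came from RefSeq. Figures were drawn with matplotlib 3.10.9.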

Additional observations from a re-analysis of the deposited data

How the results depend on the processing

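The directions of the mean ratios of Cyr61, Wisp1, Wisp2, Thbs1, Thbs2 and Thbs3 held in the 11 alternatives that kept both replicates. Cyr61 lay between -0.23 and -0.10, Wisp1 between 0.23 and 0.34, Wisp2 between 0.29 and 0.41, Thbs1 between 0.22 and 0.51, Thbs2 between 0.32 and 0.41 and Thbs3 between 0.12 and 0.17. Not all of these alternatives could move a mean. Dropping the dim-probe filter, keeping non-uniform spots, the random block and the unpaired fit left each mean as it was by construction. Averaging all probes could move Thbs1 alone, and the deposited table repeats the processed signals. With a replicate left out, Wisp2 ran from -0.29 to 0.90 and Thbs3 from -0.19 to 0.42, so both were negative without replicate 2, and Nov ran from -0.43 to 0.28, positive without replicate 1. Thbs1 ran from 0.02 to 0.72, Thbs2 from 0.11 to 0.54, Wisp1 from 0.10 to 0.37 and Cyr61 from -0.29 to -0.18. None of these members passed the threshold in any setting that kept both replicates, and the smallest adjusted p of any member was 0.718, for Thbs2. Nov reversed to 0.021 without background subtraction and to 0.78 with the software's processed signals and with the deposited table, and the cause was not tested. Median centring gave 0 members higher and 0 lower on all 4 arrays, while no background subtraction and the mean of all probes each gave 3 higher and 1 lower, against 2 and 1. The members higher on all arrays numbered 2 without replicate 2 and 6 without replicate 1, and those lower on all arrays 1 without replicate 1 and 4 without replicate 2, each over the remaining 2 arrays, on which 29.3% (replicate 1) and 38.1% (replicate 2) of all genes were higher and 29.9% and 35.0% lower. With 4 arrays and the pair as a random block, 9 genes were called (7 higher, 2 lower). With no replicate block, treating extracts as unpaired, 1 gene was called, against 0 with the replicate block, and none of these calls was a member. With 2 replicates the smallest two-sided p of the exact sign-flip test is 0.5, so their number limits every comparison. Nov was not well above background in 1 channel, and Ctgf had non-uniform spots on 3 of 4 arrays.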
